A study of Mus musculus with 574 samples.

Results

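The mitosis genes described here are 32 genes that drive or carry out cell division, followed through regeneration of granulocyte/macrophage progenitors (GMPs) in mouse bone marrow. They were chosen by name, and all 32 symbols were found among the 46078 gene rows of each of the 6 deposited tables. Wild-type C57Bl/6 mice 6 to 12 weeks old received a single dose of 150 mg/kg of 5-fluorouracil (5-FU), a pyrimidine analogue that kills dividing cells, and GMPs were taken on days 0, 8, 10, 12 and 14. The sets are day 0, a first and a second set on day 8, day 10, day 12 and day 14. GMPs were gated as c-Kit+ Sca-1- CD34+ FcγR+ cells lacking lineage markers and sorted 1 to a well, and their transcripts were read by Smart-seq2, which covers whole transcripts and adds no molecular identifiers. The protocol also names mice given PBS, and does not say whether the day 0 animals were such controls, how many mice gave a set, or which sets came from crushed and which from flushed bones.

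GMPs are dividing progenitors that give rise to neutrophils and monocytes. In a dividing cell, cyclin A and then cyclin B bind Cdk1 and bring the cell through G2 into mitosis. Polo-like and Aurora kinases then build the spindle, and kinetochore proteins tie chromosomes to it. Checkpoint kinases hold the cell until every chromosome is attached, and the anaphase-promoting complex (APC/C), an E3 ubiquitin ligase, then marks cyclin B and securin for destruction. Most of the genes are transcribed late in the cycle, through promoters with CCAAT boxes and a short element called CHR (cell cycle genes homology region), which is bound by the DREAM and MMB-FOXM1 complexes.

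RefSeq promoters of the GRCm38.p6 build, 250 bases before to 50 after a start, were matched by symbol for 28 of the 32 genes (30 promoters), and Aurkb, Ccna2, Kif20a and Tpx2 had none in the table. The letters TTTGAA or TTCGAA (CHR) and CCAAT were searched on both strands. CHR letters stood in 25 of the 30 promoters (83.3%), against 19.2% of all 32851 promoters of this length. CCAAT stood in 24 (80%), against 37.4% of all promoters, and both stood in 22 (73.3%), against 7.52%. Other G2/M genes, the companions used below to class cells, held CHR in 63.6% of 44 promoters, CCAAT in 61.4% and both in 45.5%. S phase genes held CHR in 20.6% of 34 promoters, CCAAT in 64.7% and both in 14.7%. The promoters of the 4 mitosis genes that changed between day 14 and day 8 when all cells were summed are printed 5′ to 3′, with these letters on either strand in capitals. In Ube2c 2 of the CCAAT matches share letters, and in Cdca8 the CHR match shares letters with a CCAAT match. Ube2c lies at chr2:164769679-164769978 (plus strand, 1 CHR and 6 CCAAT matches), Nusap1 at chr2:119618048-119618347 (plus strand, 0 matches of either), Cdc20 at chr4:118437294-118437593 (minus strand, 1 CHR and 2 CCAAT) and Cdca8 at chr4:124936868-124937167 (minus strand, 1 CHR and 4 CCAAT).
Ube2c: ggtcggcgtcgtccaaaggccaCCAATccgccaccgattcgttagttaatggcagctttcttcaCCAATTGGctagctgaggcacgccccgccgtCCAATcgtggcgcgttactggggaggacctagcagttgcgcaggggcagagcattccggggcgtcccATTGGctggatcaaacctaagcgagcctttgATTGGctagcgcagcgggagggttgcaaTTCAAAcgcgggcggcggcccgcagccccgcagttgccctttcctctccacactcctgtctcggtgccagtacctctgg
Nusap1: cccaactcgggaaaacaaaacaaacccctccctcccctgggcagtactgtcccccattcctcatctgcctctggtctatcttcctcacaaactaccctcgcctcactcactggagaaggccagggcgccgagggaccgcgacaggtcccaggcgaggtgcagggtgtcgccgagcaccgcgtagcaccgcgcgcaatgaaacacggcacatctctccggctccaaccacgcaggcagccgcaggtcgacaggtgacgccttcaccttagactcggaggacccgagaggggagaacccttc
Cdc20: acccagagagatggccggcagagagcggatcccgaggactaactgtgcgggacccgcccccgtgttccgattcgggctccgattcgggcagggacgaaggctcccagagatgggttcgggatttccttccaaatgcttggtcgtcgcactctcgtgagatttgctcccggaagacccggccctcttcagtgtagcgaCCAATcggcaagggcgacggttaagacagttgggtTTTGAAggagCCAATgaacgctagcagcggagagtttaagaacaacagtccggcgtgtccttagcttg
Cdca8: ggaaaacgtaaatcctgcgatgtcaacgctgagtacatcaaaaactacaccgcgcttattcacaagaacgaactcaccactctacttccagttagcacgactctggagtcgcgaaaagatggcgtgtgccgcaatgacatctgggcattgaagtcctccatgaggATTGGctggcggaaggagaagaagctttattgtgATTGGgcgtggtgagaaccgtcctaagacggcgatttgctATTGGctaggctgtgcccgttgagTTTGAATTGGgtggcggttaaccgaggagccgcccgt
The first 2 of these genes rose and the other 2 fell, so promoters with and without the letters are found among those that rose. Matches describe the letters in this window and are not binding sites.

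Of 573 cells, the 500 kept had 50000 or more gene reads and 1000 or more genes. Day 0 gave 92 of these, the day 8 sets 90 and 93, day 10 gave 93, day 12 gave 85 and day 14 gave 47. Their median depth ran between 79451 reads on day 14 and 289938 in the first day 8 set, and the summed reads of a set between 4849678 and 30691997, lowest on day 14. The median ratio of gene reads to spike-in reads was 40.9 at day 0, 78.9 and 71.8 at day 8, 59.05 at day 10, 49.9 at day 12 and 42.5 at day 14. Xist, the RNA of the inactive X chromosome, was read in 88.04% of day 0 cells and 88.2% of day 12 cells, and in 1.08 to 6.45% of cells in each other set. Sex, bone preparation and plate therefore cannot be told apart from day where they differ. The sort genes Cd34, Kit, Fcgr3 and Fcgr2b all had reads in every set, as had the granule genes Elane and Mpo, and also Ly6a, the gene of the gated-out Sca-1. Their levels were not equal, and Fcgr3, Elane and Mpo were lower on day 8 than on day 0, as given below.

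To place cells in the cycle without using the mitosis genes themselves, each kept cell was thinned at random to 50000 reads and scored by how many of 50 other G2/M genes (companions, such as Kif4, Ska1 and Sgo1) had a read. A cell with at least 23 companions, the threshold that splits all kept cells best into 2 groups (Otsu's method), was put in the G2/M class. The score is spread without a gap, so the class is a range rather than a type of cell. Its share is not a measured share of cells in G2 or mitosis. Most class cells of the day 8 sets (62 of 64 and 54 of 59) also passed the S phase threshold given below. Within 3 companions of the threshold lay 15 cells at day 0, 24 and 23 at day 8, 24 at day 10, 14 at day 12 and 6 at day 14. All 32 mitosis genes had more reads per thinned cell inside the class than outside it, with ratios between 1.88 for Cdca3 and 12.3 for Ube2c. In every set, class cells also held more genes of any kind with a read. The medians were 5416.5 inside against 4836.5 outside the class at day 0, and 5323.5 against 4460 at day 14. How many of all genes had more reads inside the class was not tested.

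**Figure D1:**
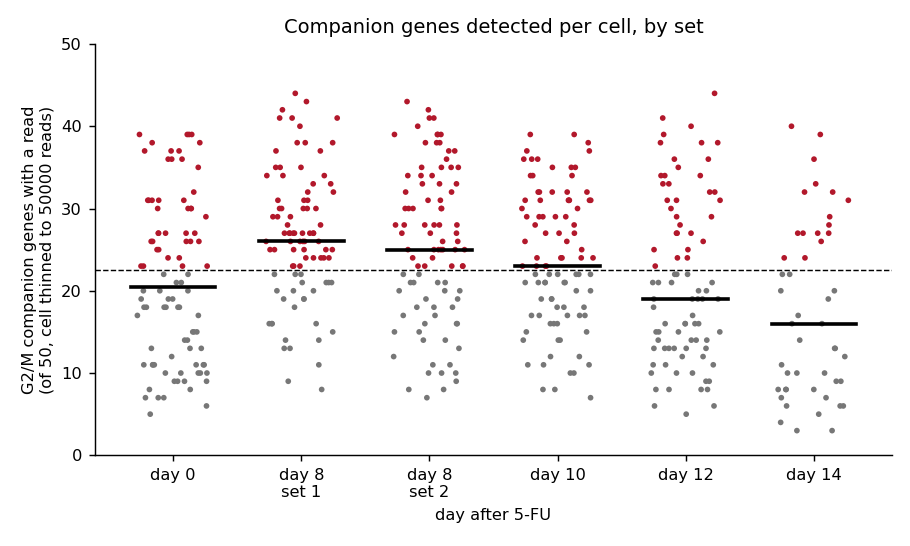
Number of 50 companion G2/M genes with a read in each kept cell, thinned to 50000 reads, by set. Each point is a cell, red at 23 or more (dashed line) and grey below, and black bars are medians, which were 20.5 at day 0, 26 and 25 at day 8, 23 at day 10, 19 at day 12 and 16 at day 14.

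Day 8 sets held the most cells in the G2/M class and day 14 the fewest. The class took 45.7% of kept cells on day 0 (42 of 92; exact 95% binomial interval 35.2 to 56.4%). On day 8 it took 71.1% of the first set (64 of 90; 60.6 to 80.2%) and 63.4% of the second (59 of 93; 52.8 to 73.2%). It took 53.8% on day 10 (50 of 93; 43.1 to 64.2%), 38.8% on day 12 (33 of 85; 28.4 to 50.01%) and 34.04% on day 14 (16 of 47; 20.9 to 49.3%). Both day 8 sets stood above day 0, and their intervals overlapped that of day 0 for the second set only. The day 10 interval overlapped those of both day 8 sets and of day 0, and the intervals of neighbours in the order of shares all overlapped. Intervals cover the counting of cells alone. Only day 8 has 2 sets, so no test over sets was made of these shares.

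Depth and RNA content moved with the shares. The median number of all genes with a read in a thinned cell was 5105 at day 0, 5871 and 5852 at day 8, 5505 at day 10, 5170 at day 12 and 4693 at day 14. When the companions were taken as a percent of these genes, the class held 46.7% at day 0, 61.1% and 52.7% at day 8, 50.5% at day 10, 41.2% at day 12 and 40.4% at day 14. Among cells with at least 100000 reads and 2000 genes, with a threshold of 25 set anew, the share was 60% on day 14 (9 of 15 cells; 32.3 to 83.7%), against 63.6% and 62.3% on day 8, and 50.7% on day 0. Day 14 was then no longer lowest, and that place fell to day 12 with 40%. The part of RNA content in the shares was not tested.

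A second class was made the same way from 40 genes of S phase, the stage of DNA replication, with a threshold of 27 genes. It took 64.1% of kept cells at day 0, 95.6% and 87.1% at day 8, 84.9% at day 10, 58.8% at day 12 and 36.2% at day 14. Cells in both classes made up 30.4% at day 0, 68.9% and 58.1% at day 8, 46.2% at day 10, 17.6% at day 12 and 14.9% at day 14. Cells in the G2/M class but not the S class were 15.2% at day 0, 2.22% and 5.38% at day 8, 7.53% at day 10, 21.2% at day 12 and 19.1% at day 14. Cells in neither class were 20.7% at day 0, 2.22% and 7.53% at day 8, 7.53% at day 10, 20% at day 12 and 44.7% at day 14. The S class and neither-class shares were not corrected for the number of genes with a read, whose median was lowest on day 14, at 4693. Day 14 cells in neither class held as few as 1664 genes, and the part of this in their share was not tested. The S class is likewise not a measured share of cells in S phase. On day 8, most G2/M class cells also held many S phase genes, while on days 12 and 14 more of them did not.

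**Figure D2:**
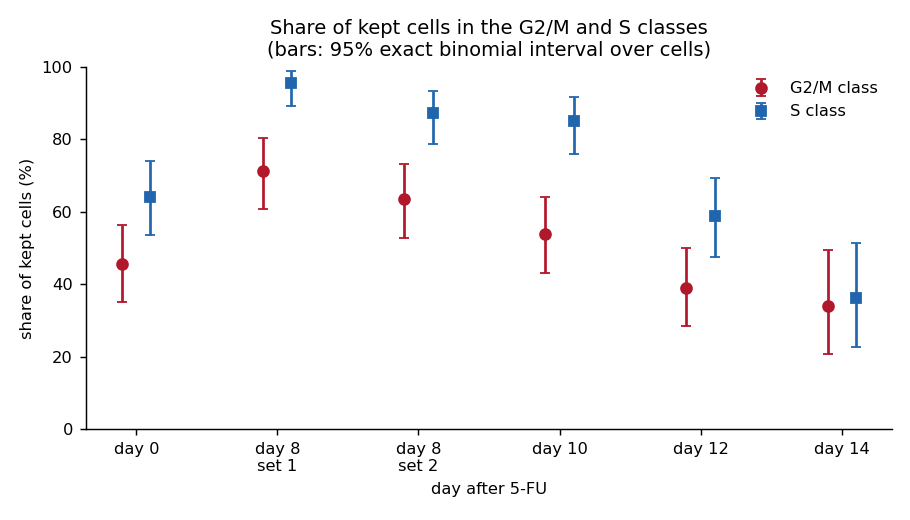
Share of kept cells in the G2/M class (red circles) and in the S class (blue squares) by set, with exact 95% binomial intervals over cells as bars. The G2/M share was 71.1% and 63.4% in the day 8 sets, and 45.7% on day 0 and 34.04% on day 14.

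The mitosis genes themselves took few reads, and most cells of every set held some. Summed over the 32 genes, a cell of 50000 reads held a median of 88 reads at day 0, 124.5 and 123 at day 8, 113 at day 10, 83 at day 12 and 52 at day 14. The mean was 133 at day 0, 160.1 and 157 at day 8, 141 at day 10, 120.3 at day 12 and 103 at day 14. The highest decile began near the same level in every set, at 311 reads at day 0, 309 and 322 at day 8, 306 at day 10, 274 at day 12 and 273 at day 14. Low cells thus differed between sets more than high cells. Cells of the G2/M class averaged 229 reads at day 0, 191 and 208 at day 8, 202 at day 10, 226 at day 12 and 232 at day 14. The cells outside the class averaged 52.6 at day 0, 82.9 and 68.7 at day 8, 70.4 at day 10, 53.2 at day 12 and 36.7 at day 14. The order of the sets was therefore turned round between the classes, with the day 8 and day 10 sets lowest inside the G2/M class and highest outside it. The class held 72.9 to 85.0% of all reads of the mitosis genes in a set.

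Levels are given as CPM, the summed reads of a set scaled to a common library size, with TMM factors (trimmed mean of M values, which correct for a few very abundant genes). In bulk sums of this kind, fewer cells in mitosis and less RNA of a gene per cell cannot be told apart, which is why sums within the G2/M class are given beside those of all kept cells. The class is a cut on a continuous score and its make-up differs between sets. Sums within it therefore do not fully separate share from level. All 32 genes had reads in every set and all 32 passed the filter on low counts.

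Ccnb2, Cdc20, Ube2c, Ccna2 and Cdk1, in this order, had the highest mean level per kb of exon. Ccnb2, a mitotic cyclin B gene (ENSMUSG00000032218, mm10 chromosome 9, 70407692 to 70421547), had the highest mean level of the 32, 110.2 CPM per kb. It stood at 150.3 CPM at day 0, 200.4 and 214 at day 8, 167 at day 10, 124 at day 12 and 157 at day 14, so that both day 8 sets lay above all others. Ccna2, the cyclin A gene of S phase and mitotic entry (ENSMUSG00000027715, chromosome 3, 36564865 to 36572150), averaged 57.1 CPM per kb. It stood at 169 CPM at day 0, 306 and 255 at day 8, 258 at day 10, 199.7 at day 12 and 210.1 at day 14. Day 0 was its lowest set. Within the G2/M class Ccna2 was nearly level, between 279.5 CPM on day 0 and 344 on day 14. Outside the class it stood at 32.3 CPM at day 0, 239.9 and 166 at day 8, 126 at day 10, 82.8 at day 12 and 69.3 at day 14, so that the sets differed more there. Ccna2 shares 12.5% of its exon length with Exosc9 on the other strand. Cdk1, the kinase that both cyclins activate, varied least of the 32 genes in summed cells, between 232 and 256 CPM. Ccnb1 ranged between 60.9 and 83.4 CPM, with its reads uncertain because 5 pseudogenes match it over at least 200 bases at 95% or more (Ccnb1-ps at 99.2% over 1287 bases).

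Ube2c and Cdc20, which work with the APC/C, were among the genes that varied most. Ube2c, the ubiquitin-conjugating enzyme that starts ubiquitin chains for the APC/C (ENSMUSG00000001403, chromosome 2, 164769898 to 164778822), stood at 164 CPM at day 0, 121 and 144 at day 8, 133 at day 10, 132 at day 12 and 253 at day 14. Day 14 lay above every other set. Within the G2/M class Ube2c was at 290.4 CPM at day 0, 154 and 184 at day 8, 195 at day 10, 261 at day 12 and 473 at day 14. Outside it, 8.40 to 30.99 CPM were found. Exons of Ube2c share 22.8% of their length with Tnnc2 on the other strand, and the libraries do not mark strand. Cdc20, the substrate-binding activator of the APC/C (ENSMUSG00000006398, chromosome 4, 118432901 to 118437352), followed another order. It stood at 116 CPM at day 0, 205 and 169.7 at day 8, 151 at day 10, 109 at day 12 and 102 at day 14, with the day 8 sets highest. Within the class Cdc20 lay between 183 CPM on day 0 and 232 in the first day 8 set. Outside it, the gene stood at 34.1 CPM at day 0, 143 and 84.5 at day 8, 71.3 at day 10, 31.6 at day 12 and 6.38 at day 14. The levels of Cdc20 outside the class thus differed more between sets than those within it, also without day 14, the shallowest set and the lowest.

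Genes of the chromosomal passenger complex, which corrects wrong attachments and guides cytokinesis, are Aurkb, Birc5 (survivin) and Cdca8 (borealin). Cdca8 (ENSMUSG00000028873, chromosome 4, 124918465 to 124939311) stood at 159.9 CPM at day 0, 182 and 164 at day 8, 177 at day 10, 153 at day 12 and 99.8 at day 14, so that day 14 was apart below the rest. In the G2/M class it was also lowest on day 14, at 153 CPM, against 187 to 245 CPM elsewhere. Aurkb ranged between 119.5 and 159 CPM and Birc5 between 122 and 159 CPM over the sets. Day 14 was the lowest set for neither.

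Spindle proteins and motors varied in both directions. Nusap1, a microtubule-bundling protein of the spindle (ENSMUSG00000027306, chromosome 2, 119618298 to 119651244), stood at 78.3 CPM at day 0, 63.03 and 71.1 at day 8, 63.3 at day 10, 80.6 at day 12 and 132 at day 14. In the class it stood at 129 CPM at day 0, 82.3 and 89.01 at day 8, 91.0 at day 10, 154 at day 12 and 229 at day 14, highest on day 14 in both kinds of sum. Kif11, the motor that pushes spindle poles apart (ENSMUSG00000012443, chromosome 19, 37376403 to 37421859), went the other way. It stood at 78.1 CPM at day 0, 71.8 and 62.6 at day 8, 54.3 at day 10, 45.5 at day 12 and 40.1 at day 14, each later day lower than the day before it. Of the other motors, Kif20a (33.8 to 68.9 CPM) and Kif2c (21.8 to 41.8 CPM) were highest in the first day 8 set, while Kif23 (35.95 to 58.7 CPM) was highest on day 0. Kif20a shares 29.3% of its exon length with Cdc23 on the other strand. Tpx2, which targets Aurora A to the spindle, ranged from 75.9 to 113 CPM, the spindle kinase gene Aurka itself from 79.1 to 119 CPM, and Hmmr, a spindle assembly factor, from 28.1 to 50.6 CPM. Prc1, which bundles the central spindle, lay between 47.3 and 78.7 CPM and shares 11.1% of its exon length with Rccd1.

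At the kinetochore, Cenpf, a large outer kinetochore protein (ENSMUSG00000026605, chromosome 1, 189640606 to 189688086), had the lowest mean level per kb of the 32 (2.28 CPM per kb). It stood at 43.03 CPM at day 0, 30.1 and 32.8 at day 8, 23.5 at day 10, 34.2 at day 12 and 47.8 at day 14. In the class it was at 54.8 CPM at day 0, 39.8 and 40.9 at day 8, 33.6 at day 10, 61.96 at day 12 and 86.6 at day 14. Day 14 was the highest set in both. Cenpa, the centromeric histone, ranged between 105 and 153 CPM, the motor gene Cenpe between 39.8 and 50.04, and Ndc80 and Nuf2, of the complex that grips microtubules, between 28.1 and 44.3 and between 38.8 and 67.4 CPM. The checkpoint kinase genes Bub1 (40.6 to 50.8 CPM) and Ttk (25.2 to 36.3 CPM) and their partner Bub1b (58.3 to 81.7 CPM) varied by less than 1.5 times. Plk1, the kinase of mitotic entry and exit, ranged between 69.2 and 106 CPM. Top2a, which untangles sister DNA, lay between 229 and 310.2 CPM, Mki67, the proliferation marker that coats mitotic chromosomes, lay between 122 and 168 CPM, and Cdca3, a mitotic entry factor, between 97.5 and 167 CPM. The cytokinesis genes Anln (31.1 to 39.1 CPM) and Ect2 (35.1 to 51.1 CPM) differed little.

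Between day 8 and day 0, no mitosis gene changed when all kept cells were summed, 0 of 32, against a background of 5.63% of all 15145 genes tested (edgeR quasi-likelihood F test, Benjamini-Hochberg adjusted p under 0.05 over all genes). At an unadjusted p under 0.05 there were 3, all higher, against 18.5% of all genes in either direction. DESeq2's Wald test also called 0. The values lay between −0.51 and 0.75 on the log2 scale, with a median of 0.10 against 0.01 over all genes. The 3 were Kif20a (0.75, SE 0.30, adjusted p = 0.142), Ccna2 (0.74, SE 0.27, adjusted p = 0.105) and Cdc20 (0.69, SE 0.27, adjusted p = 0.133). Without cells holding at least 10 of 50000 reads of the erythroid, mast and basophil genes Gata1, Klf1, Ms4a2, Mcpt8 and Prss34 (76 of 500 cells), the median was −0.03 and again 0 genes changed.

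Within the G2/M class the values of day 8 against day 0 leaned lower, with 24 of 32 below 0 and a median of −0.25, against 0.04 over all genes. None changed by the edgeR test, 0 of 32 against a background of 2.04%. At an unadjusted p under 0.05, 8 were lower, against 19.7% of all genes in either direction. The 50 companions that define the class leaned likewise in this comparison, with a median of −0.25. Kif23 had the lowest value, with 57.2 and 46.8 CPM on day 8 against 103 CPM on day 0 (−0.98, SE 0.25, adjusted p = 0.0634). Prc1 had 81.7 and 63.5 CPM on day 8 against 127 CPM on day 0 (−0.80, SE 0.24, adjusted p = 0.105). Mki67 had 150.0 and 143 CPM on day 8 against 249 CPM on day 0 (−0.77, SE 0.22, adjusted p = 0.0865). Both day 8 sets lay below day 0 for these 3 genes. They were singled out for their low values, so this lends them no further support. Kif23 passed with DESeq2 size factors (adjusted p = 0.0380). Kif23, Prc1 and Mki67 all passed after thinning (0.0248, 0.0196 and 0.0212). The share of all genes called under these settings is not given. In the same class cells Malat1 and Neat1, RNAs kept in the nucleus that move with RNA quality, fell on day 8 by 1.24 and 1.19 on the log2 scale (adjusted p = 0.0427 and 0.0430), and the median ratio of gene to spike-in reads was 82.3 and 83.8 on day 8 against 46.8 on day 0. Their part in the result was not tested. In cells outside the class the same edgeR test called 1 of 32, higher on day 8, beside 97 of 14270 genes. Of the 32 values there, 24 lay above 0, with a median of 0.58 and the highest for Ccna2 (2.65).

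The later days were compared with day 0 and with day 8, and these comparisons share the day 0 set or the day 8 sets. Of the 32 genes in summed cells, 0 changed on day 10 against day 0 (background 1.43%, 2 at an unadjusted p under 0.05) and 0 on day 12 against day 0 (background 0.172%, 2 at an unadjusted p). On day 14 against day 0 the number was 0 (background 1.58%, 4 at an unadjusted p). Against day 8 it was 0 on day 10 (background 0.792%, 0 at an unadjusted p) and 0 on day 12 (background 2.5%, 6 at an unadjusted p, all lower). These counts are from edgeR, and DESeq2's Wald test called 0 in each as well. Of all genes, 12.1%, 7.84% and 13.5% had an unadjusted p under 0.05 on days 10, 12 and 14 against day 0. Against day 8 the share was 7.46% on day 10 and 12.7% on day 12. Medians were −0.03, −0.16 and 0.04 for days 10, 12 and 14 against day 0, and −0.13 and −0.18 for days 10 and 12 against day 8. On day 12 the lowest values against day 8 were those of Cdc20 (−0.78, SE 0.27, adjusted p = 0.132), Hmmr (−0.78), Kif20a (−0.78), Kif2c (−0.78) and Ccnb2 (−0.75). Cdc20 passed there when the erythroid, mast and basophil reads were taken out with their cells (−1.04, adjusted p = 0.0319).

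In class cells the same comparisons called no mitosis gene by edgeR. The count was 0 of 32 on day 10 against day 0 (background 0.13%, 6 at an unadjusted p under 0.05), 0 on day 12 against day 0 (background 0.0391%, 2 at an unadjusted p) and 0 on day 14 against day 0 (background 0.0717%, 3 at an unadjusted p). It was 0 on day 10 against day 8 (background 0.0717%, 1 at an unadjusted p) and 0 on day 12 against day 8 (background 1.02%, 8 at an unadjusted p, all higher). On day 12 against day 8, 26 of 32 values lay above 0 with a median of 0.24, led by Nusap1 with 154 CPM on day 12 against 82.3 and 89.01 CPM on day 8 (0.84, SE 0.23, adjusted p = 0.103). Medians on days 10, 12 and 14 against day 0 were −0.27, −0.0038 and 0.12. Of all genes in class cells, 15.2%, 13.4% and 15.5% had an unadjusted p under 0.05 on these days against day 0. Against day 8 the share was 8.74% on day 10 and 15.9% on day 12.

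Among sums of all kept cells, mitosis genes changed only in day 14 against day 8, 4 of 32, below the background of 14.1% of all genes. Nusap1 rose, with 132 CPM on day 14 against 63.03 and 71.1 CPM on day 8 (log2 fold change 0.98, SE 0.26, edgeR adjusted p = 0.00818). Ube2c rose, with 253 CPM on day 14 against 121 and 144 CPM on day 8 (0.93, SE 0.26, adjusted p = 0.0100). Cdc20 fell, with 102 CPM on day 14 against 205 and 169.7 CPM on day 8 (−0.88, SE 0.28, adjusted p = 0.0269). Cdca8 fell, with 99.8 CPM on day 14 against 182 and 164 CPM on day 8 (−0.79, SE 0.28, adjusted p = 0.0447). For all 4 genes the day 14 value lay outside the range of the day 8 sets. The 32 genes leaned slightly lower, with 21 values below 0 and a median of −0.17 against −0.05 over all genes. The day 14 sum held 4849678 reads, the fewest of the 6. With every cell thinned to 50000 reads none of the 4 passed. Values were then 1.15 for Nusap1 (SE 0.22, adjusted p = 0.114) and 0.81 for Ube2c (SE 0.31, 0.216). They were −1.14 for Cdc20 (SE 0.26, 0.132) and −0.55 for Cdca8 (SE 0.23, 0.247). The change was thus larger after thinning for Nusap1 and Cdc20 and smaller for Ube2c and Cdca8. Why the calls were lost was not tested. Without a filter on low counts Nusap1 and Ube2c missed the threshold (0.0734 and 0.0799), and in cells with at least 100000 reads Cdc20 stood at −0.31 (adjusted p = 0.489), while Nusap1 and Ube2c passed there. Cdca8 missed it with DESeq2's Wald test (0.0610) and without the 76 cells that held erythroid, mast or basophil reads (0.0600), where the other 3 passed.

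In the G2/M class 3 of 32 genes changed between day 14 and day 8, all higher, against a background of 4.91%. Ube2c rose, with 473 CPM on day 14 against 154 and 184 CPM on day 8 (1.48, SE 0.23, adjusted p = 0.00887). Nusap1 rose, with 229 CPM on day 14 against 82.3 and 89.01 CPM on day 8 (1.42, SE 0.23, adjusted p = 0.0103). Cenpf rose, with 86.6 CPM on day 14 against 39.8 and 40.9 CPM on day 8 (1.10, SE 0.27, adjusted p = 0.0430). Cdc20 (−0.15, adjusted p = 0.719) and Cdca8 (−0.38, adjusted p = 0.339), which fell in summed cells, did not pass within the class. Of the 32 values, 26 lay above 0, with a median of 0.27 against −0.13 over all genes. Kif23 (0.93), Prc1 (0.90), Cenpe (0.88) and Bub1 (0.68) came next and did not pass. The median of the 50 companions that define the class was 0.29 in this comparison. Cenpf missed the threshold after thinning (0.0511) and without cells that held erythroid, mast or basophil reads (1.44, adjusted p = 0.0598), while Ube2c and Nusap1 passed both times. Only 16 cells made the day 14 class sum. Of these, 7 were also in the S class, against 62 of 64 and 54 of 59 class cells on day 8. The median number of genes with a read in class cells was 5324 on day 14, against 5934 and 5983 on day 8. The part of these differences in the result was not tested. In cells outside the class the edgeR test called 4 of 32, all lower on day 14, beside 553 of 14270 genes. Of the 32 values there, 24 lay below 0, with a median of −0.92. The lowest was that of Hmmr (−4.59), which stood at only 0.491 CPM outside the class on day 14.

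**Figure D3:**
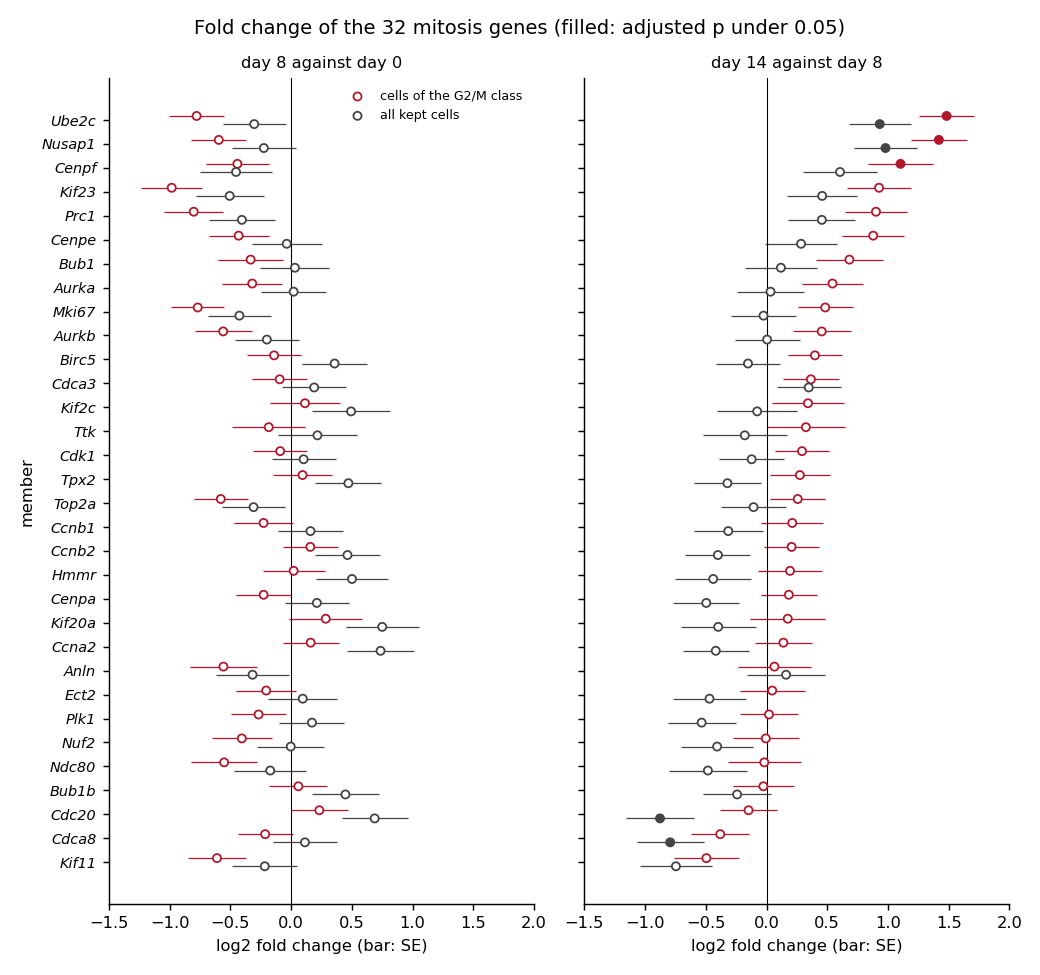
Log2 fold change of each of the 32 genes for day 8 against day 0 (left) and day 14 against day 8 (right), within the G2/M class (red) and in all kept cells (dark grey), with standard errors as bars and filled points for adjusted p under 0.05. Filled points appear only for day 14 against day 8, with Ube2c at 1.48 and Nusap1 at 1.42 within the class.

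Genes that broke from the rest were taken as those more than 1 log2 unit from the median of the 32. In day 14 against day 8 these were Ube2c and Nusap1, above the median by 1.10 and 1.15 in summed cells and by 1.22 and 1.15 within the class. In day 14 against day 0 it was Kif11, below the median by 1.01 in summed cells and by 1.23 within the class. Kif11 stood at 40.1 CPM on day 14 against 78.1 CPM on day 0 in summed cells (−0.96, SE 0.33, adjusted p = 0.128). Within the class it stood at 59.2 CPM on day 14 against 127 CPM on day 0 (−1.11, SE 0.30, adjusted p = 0.141). Kif11 passed in summed cells with no filter on cells (−1.12, adjusted p = 0.0318) and in cells with at least 100000 reads (−1.10, adjusted p = 0.0429). In the other 5 comparisons no gene was this far from the median in summed or class cells.

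**Figure D4:**
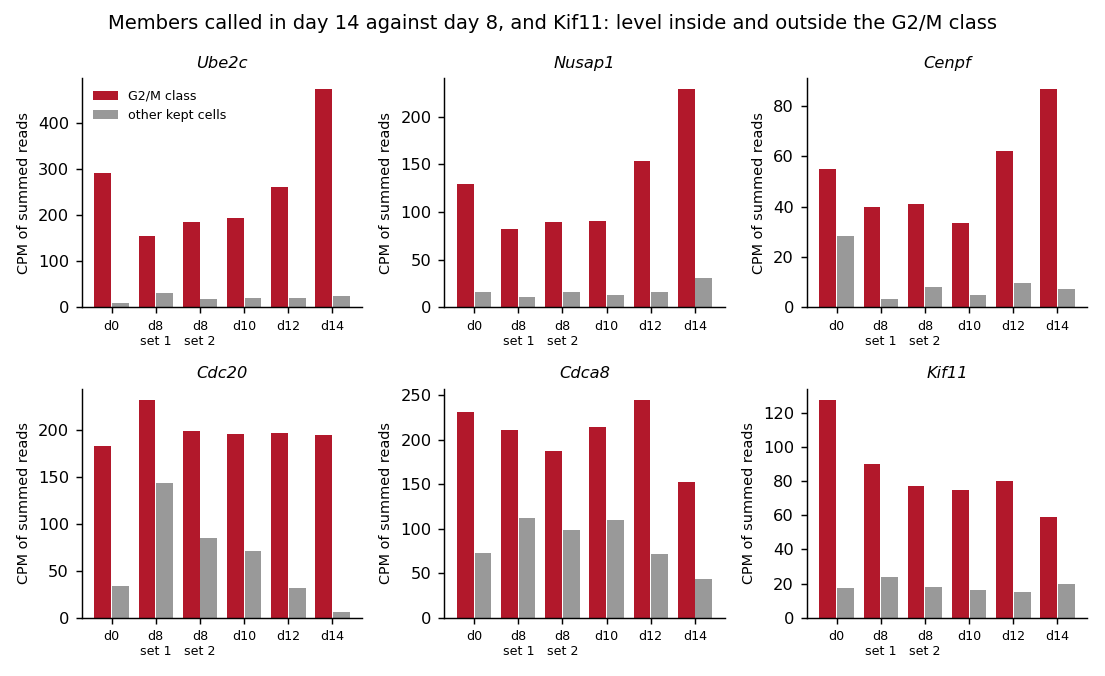
CPM of summed reads within the G2/M class (red) and in other kept cells (grey) by set, for the genes that changed between day 14 and day 8 in either sum and for Kif11. Outside the class, Cdc20 had 6.38 CPM on day 14, against 143 and 84.5 CPM on day 8, while inside it lay between 183 and 232 CPM in all 6 sets.

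Cell by cell, the genes followed each other to different degrees. Across the 500 thinned cells, the Spearman correlation of a gene's reads with the summed reads of the other 31 was highest for Ube2c (0.77), Birc5 (0.74), Plk1 (0.74) and Ccna2 (0.70). As a mean of the values within each set, it was 0.75 for Ube2c, 0.72 for Plk1, 0.71 for Birc5 and 0.697 for Cdca8, with Ccna2 and Aurka both at 0.69. It was lowest for Ndc80 (0.40), Ttk (0.41), Bub1 (0.44) and Anln (0.44). These are descriptions over cells that share libraries and depth, and the low 4 are among the genes with fewest reads per cell, with means of 1.97 to 2.71 reads inside the class. Ube2c kept a high value in each set, between 0.73 and 0.79, while Ccnb2 ranged between 0.25 and 0.75 and Cdca3 between 0.26 and 0.65. The ratio of mean reads inside the class to those outside was largest for Ube2c (12.3 times), Plk1 (10.0), Kif2c (7.64) and Hmmr (7.51), and smallest for Cdca3 (1.88) and Ccnb2 (1.95). Outside the class Ube2c stood at 8.40 to 30.99 CPM and Plk1 at 5.89 to 18.4 CPM. Cdca3 was highest there on day 14, at 137 CPM against 95.6 and 77.1 on day 8, with a read in 100% of the day 14 cells. Ccnb2 was lowest there on day 14, at 54.5 CPM against 148 and 223 on day 8.

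Other genes of the G2/M programme were tested in the same fits. Of the 50 companions, Nek2, a centrosome kinase gene, rose on day 8 against day 0 in summed cells (1.19, SE 0.37, adjusted p = 0.0413), and 49 did not pass, against a background of 5.63% of all genes in that comparison. On day 14 against day 8, Cit, a cytokinesis kinase gene (1.66, SE 0.29, adjusted p = 4.04e-05), and Fam83d, a spindle protein gene (1.42), rose and Melk (−1.12) fell, 3 of 50 against a background of 14.1%. Among 15 subunits of the APC/C, 0 of 15 changed on day 8 against day 0. On day 14 against day 8, Anapc4 (0.91) and Anapc11 (0.80) rose and Anapc7 (−1.47) and Anapc1 (−1.40) fell, so 4 of 15 passed, against the same 14.1%. Of 14 cohesin and condensin genes, Ncapg2 (−1.39) and Pds5a (−1.03) fell in that comparison, 2 of 14. In class cells Fam83d rose and Anapc1 and Ncapg2 fell on day 14 against day 8 (2.14, −1.52 and −2.01, background 4.91%), and the scaffold protein gene Iqgap3 rose on day 12 against day 8 (1.75, adjusted p = 0.0467).

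Among 15 genes that control transcription of the mitotic programme, Mybl2 and Lin9 changed. Mybl2, which encodes the B-MYB subunit of the MMB complex, had 63.3 and 46.5 CPM on day 8 against 18.1 CPM on day 0 and rose (1.60, SE 0.32, adjusted p = 0.000681). It also rose on day 10 against day 0 (1.46, SE 0.35, adjusted p = 0.0135), with 49.9 CPM. Lin9, a shared subunit of DREAM and MMB, had 52.9 and 79.2 CPM on day 8 against 156 CPM on day 0 and fell (−1.24, SE 0.26, adjusted p = 0.00168). On day 14 Lin9 stood at 315 CPM against 52.9 and 79.2 CPM on day 8 (2.25, SE 0.26, adjusted p = 4.45e-09). Foxm1, the activator that joins MMB in G2, did not pass on day 8 against day 0 (0.18, SE 0.37, adjusted p = 0.838), nor did Fzr1, which encodes the APC/C activator Cdh1 (−0.11, adjusted p = 0.869). Within the G2/M class Mybl2 rose and Lin9 fell on day 8 against day 0 as well (1.58 and −1.30, adjusted p = 0.0319 and 0.0275), and Lin9 rose on day 14 against day 8 (1.73, adjusted p = 0.00689). Of these 15 genes in summed cells, 1 rose and 1 fell on day 8 against day 0, and 1 rose and 1 fell (Lin9, E2f4) on day 14 against day 8. The background was 5.63% and 14.1% of all genes in these comparisons.

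Of 12 genes that control entry into mitosis, 1 rose and 3 fell on day 14 against day 8, against a background of 14.1% of all genes. Cdc25b, a phosphatase that activates Cdk1, had 43.6 CPM on day 14 against 23.9 and 15.5 CPM on day 8 (1.14, SE 0.36, adjusted p = 0.0233). Cdkn1a, which encodes the inhibitor p21, had 10.7 CPM on day 14 against 30.8 and 30.4 CPM on day 8 and fell (−1.51, SE 0.43, adjusted p = 0.0116). It had already fallen on day 10 against day 8, with 8.58 CPM on day 10 (−1.83, SE 0.40, adjusted p = 0.00857). Chek1 (−1.09) and Ppp2r2a (−1.24) also fell on day 14. Of 40 S phase genes, 4 rose on day 8 against day 0 in summed cells, namely Ccne2 (1.22), Ccne1 (1.07), Rrm2 (0.996) and Chaf1b (0.93), against a background of 5.63%, and 8 fell on day 14 against day 8, against 14.1%, among them Ccne2 (−1.53), Ccne1 (−1.52) and Rrm2 (−1.16). On day 14 against day 0 the repair helicase gene Brip1 fell (−1.62, adjusted p = 0.0268). Within the G2/M class 3 of the 40 rose on day 8 against day 0 (Ung 1.82, Ccne2 1.81 and Chaf1b 1.23), against 2.04% of all genes. In the class 4 fell on day 14 against day 8 (Dscc1 −3.68, Mcm2 −1.68, Mcm4 −1.18 and Nasp −1.15), against 4.91%. The median of the S phase list in summed cells was 0.27 and −0.41 in these comparisons, where that of the mitosis genes was 0.10 and −0.17. The difference between the lists was not tested.

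The make-up of the sorted cells moved with day as well. On day 8 against day 0, 8 of 11 monocyte genes fell and 5 of 9 measured granule genes fell, while 5 of 13 genes of stem and multipotent cells and all 4 erythroid genes tested rose. Of 6 mast and basophil genes tested 3 rose and 1 fell, of 4 megakaryocyte genes 2 rose, and of 4 eosinophil genes 2 fell. Of 5 genes of the sort gate Fcgr3 fell, in summed cells and within the class. Of 10 GMP marker genes 5 fell in summed cells (Elane, Csf1r, Irf8, Mpo and Cebpe). The summed level of these 10 was 36944.2 and 28221.5 CPM on day 8 against 82387.5 CPM on day 0. The background in this comparison was 5.63% of all genes in summed cells and 2.04% within the class. The summed level of 10 erythroid genes was 146 and 177 CPM on day 8 against 22.8 CPM on day 0, with Hba-a1 and Hba-a2 at 0 reads in every set. That of 11 monocyte genes was 1343 and 567 CPM on day 8 against 6351 CPM on day 0. That of 8 mast and basophil genes was 504 and 389 CPM on day 8 against 417 CPM on day 0, and 268 CPM on day 14. Summed levels of the megakaryocyte, lymphoid, dendritic and eosinophil lists were 16.2 to 46.0, 631 to 1315, 33.4 to 57.01 and 24.7 to 507 CPM over the sets. Their part in the levels of the mitosis genes was not tested beyond leaving out the 76 cells named above, after which the G2/M share was 47.1% at day 0, 72.1% and 69.7% at day 8, 56.6% at day 10, 39.5% at day 12 and 32.6% at day 14.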

How the data were processed

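Single GMPs of C57Bl/6 mice were sequenced in 6 sets after 5-FU. The deposited values are raw read counts per gene and cell, made by the authors per the submitters' processing notes with HTSeq 0.5.3p3 after alignment to mm10 with GSNAP. The libraries carry no molecular identifiers or strand, so PCR copies are counted, intervals cover counting error only, and reads of overlapping genes on opposite strands cannot be told apart. Of 574 labelled cells, 573 had a column, and 1 column was not used. The 92 spike-in rows and the 5 rows that name no gene (a median of 91.1% of reads) were left out of totals and tests. No 2 cells had identical counts (0 pairs), each cell was its own library, and no doublet caller was run. Symbols came from GENCODE vM21, whose GRCm38 build is mm10, and 45229 IDs had one.

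Counts of kept cells were summed per set, since cells are not replicates. Genes passing edgeR's filterByExpr by day, with a read in at least 10% of cells of a set, were tested, 15145 in all kept cells and 15347 within the G2/M class. The fit used TMM factors, a mean per day and the quasi-likelihood F test of edgeR 4.0.16 (R 4.3.3), with Benjamini-Hochberg adjustment over all genes and a threshold of 0.05. The 1 residual degree of freedom comes from the 2 day 8 sets, which the labels do not tie to separate mice. The p-values therefore rest on the spread of that pair alone, possibly technical, and other days are assumed to vary like it. The test draws each gene's spread towards that of all genes, with a weight (prior degrees of freedom) that differed between fits. It was 50.9 in summed cells, 10.2 within the class and infinite outside it. Passing in summed cells and missing within the class, or the reverse, are thus not like for like. All 32 mitosis genes are accounted for, with full values for those that changed in a summed comparison or broke from the median, the 4 highest per kb, and Cenpf, Kif23, Prc1 and Mki67, which were singled out after their values were seen. Of other lists, called genes with the largest change and Foxm1, Mybl2, Cdkn1a, Fzr1, Malat1 and Neat1 are named, and 1 gene that this rule names is not reported here. Members and lists were chosen with earlier results of these data known. Azu1 of the granule list had no match. Alternatives were DESeq2 1.42.0 size factors and its Wald test, other gene and cell filters, thinning, leaving out Slc34a2, other class rules and each day 8 set left out. Companions as a percent of genes, summed reads of the mitosis genes as a class score, and the exclusion of erythroid, mast and basophil reads, were added after seeing the data. Sums outside the class were put through the same edgeR test, over 14270 genes. Of the 32 mitosis genes it called 1 on day 8 against day 0 (higher) and 1 on day 14 against day 0 (lower). Of all genes, 97 and 70 were called there. It called 2 on day 12 against day 8 and 4 on day 14 against day 8, all lower, beside 95 and 553 of all genes. It called 0 on days 10 and 12 against day 0 and on day 10 against day 8. Tables and figures were made in Python 3.11.15 (pandas 2.3.3, numpy 2.4.6, matplotlib 3.10.9, scipy 1.17.1).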

Additional observations from a re-analysis of the deposited data

How the results depend on the processing

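No paired analysis was possible because only day 8 has replicate sets, so that no 2 groups share replicate numbers. Counts of mitosis genes called kept to within 1.5 times of the reported count in 73 of 84 alternative values. The reported count in summed and in class cells was 0 in every comparison but day 14 against day 8. Most of these counts therefore kept by being 0 again. A kept count can also hold other genes. For day 14 against day 8, summed cells with at least 100000 reads lost Cdc20 and added Kif11, Anln and Prc1. Thinned class cells lost Cenpf there and added Kif23 and Cenpe. In summed cells, day 14 against day 0 gave 1 call without a cell filter (Kif11) and 2 in cells with at least 100000 reads and 2000 genes (Kif11, Anln), against 0 as reported. Day 14 against day 8 gave 2 without a gene filter and 0 in thinned cells, against 4. Day 12 against day 8 gave 1 (Cdc20) without cells that held erythroid, mast or basophil reads. Within the G2/M class, day 8 against day 0 gave 1 with DESeq2 size factors (Kif23), 1 with the class made from the mitosis genes (Kif23) and 3 after thinning, against 0. Day 12 against day 8 gave 2 after thinning (Nusap1, Cenpe), and day 14 against day 8 gave 6 with DESeq2 size factors and 6 with the class made from the mitosis genes, against 3, with Kif23, Prc1 and Cenpe added. A class made from the mitosis genes selects cells by the genes then tested, so its calls lend those genes no support. The sign of Anln turned round for day 14 against day 8 in cells with at least 100000 reads (−1.08, adjusted p = 0.0440, against an uncalled 0.16), where day 14 holds 15 cells. The cause was not tested in any of these. The share of all genes called under each alternative is not given, so a higher count there lends a gene no added support.

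The G2/M share moved with its definition. A threshold 3 companions lower gave 82.2% in the first day 8 set and 68.8% on day 10. A threshold 3 higher gave 55.6% and 48.4% in the day 8 sets and 43.01% on day 10. Cells at their own depth gave 64.5% on day 10 and 50.6% on day 12. Summed companion reads gave 64.1% on day 0, 82.2% and 76.3% at day 8, 77.4% at day 10 and 61.2% at day 12. The strict cell filter gave 60% on day 14, and companions as a percent of genes gave 52.7% in the second day 8 set. Summed reads of the mitosis genes themselves, a definition added after seeing the data, gave 86.7% and 77.4% at day 8, 74.2% at day 10 and 55.3% at day 12. The other 42 of 60 alternative shares stayed within the intervals of the reported ones.

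Leaving out either day 8 set leaves no residual degree of freedom, so only values were had. For day 14 against day 8 they were 0.78 and 1.06 for Ube2c, 0.86 and 1.07 for Nusap1, −0.77 and −1.01 for Cdc20, and −0.75 and −0.87 for Cdca8, and within the class 1.36 and 1.62 for Ube2c, 1.36 and 1.48 for Nusap1, and 1.08 and 1.12 for Cenpf. The median of the 32 genes changed sign in 1 of 10 alternatives for day 8 against day 0, 2 of 10 for day 10 against day 0 and 3 of 10 for day 14 against day 0 in summed cells, and in 3 of 6 for day 10 against day 8 within the class. Each day but day 8 has a single set, and the day 14 class sum holds 16 cells.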
